A study of Homo sapiens with 12 samples.

Results

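The secreted and membrane-bound cues that steer growing axons, and the receptors that read them, were followed after inhibition of BRD9 in 2 lines from human germ cell tumours of the testis. The genes were chosen by symbol: semaphorins, plexins, neuropilins, ephrins, Eph receptors, slits, ROBO receptors, netrins and UNC5 receptors. Of 63241 genes in the count table, 68 had such a symbol, and the 61 with at least 10 counts summed over the 12 libraries are described here. The other 7 held between 0 and 7 counts (NTN3 and PLXNB3 at 0, UNC5A, UNC5C and EPHA5 at 1, EPHA3 at 2, ROBO4 at 7).

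The 4 groups, of 3 libraries each, were TCam-2 with I-BRD9, TCam-2 with DMSO, 2102 EP with I-BRD9 and 2102 EP with DMSO. TCam-2 is an established line labelled seminoma, a tumour whose cells resemble primordial germ cells. 2102 EP is an established line labelled embryonal carcinoma, whose cells resemble pluripotent stem cells. The genotype of both lines is given as WT. I-BRD9 is an inhibitor of the bromodomain, the acetyl-lysine reader, of BRD9. That protein belongs to the non-canonical BAF complex, which remodels chromatin. It was given at 15 µM for 24 h, and the controls received the solvent DMSO alone. TCam-2 was grown in RPMI and 2102 EP in DMEM, so that line and medium cannot be told apart in any comparison of the lines. The study has 1 dose, 1 time and 1 line per tumour type. The labels call the replicates biological without saying how the cultures were kept apart, so that p-values measure the spread between these libraries.

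Ephrins are ligands held in the cell membrane, and Eph receptors are tyrosine kinases that bind them on a touching cell, with signals running into both cells. Semaphorins are secreted or membrane-bound ligands that signal through plexins, for the secreted class with neuropilins as co-receptors. Slits repel cells through ROBO receptors, and netrins attract or repel through DCC and the UNC5 receptors. The families are named for their work in the nervous system, and they also act in the shaping of vessels and epithelia and in cell migration.

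The libraries held 7290335 to 10053366 counts each, and a count of 3 corresponded to 0.297 to 0.409 CPM, the unit of library-scaled counts used throughout. Of the 61 genes, 53 had enough counts to be tested, 30 ligands and 23 receptors. The 8 that were not tested were EPHA6, NRP1, NTN4, NTN5, PLXNC1, ROBO2, SEMA3G and SEMA5B, which averaged at most 2.15 CPM in any group. SOX2 and SOX17 fitted the labels of the libraries. SOX2, a factor of embryonal carcinoma, averaged 17.1 CPM in TCam-2 and 468 CPM in 2102 EP with DMSO. SOX17, a factor of seminoma, averaged 193 CPM in TCam-2 and 0.0774 CPM in 2102 EP with DMSO. Of the embryonal carcinoma markers summed below, NANOG and POU5F1 went the other way with DMSO. NANOG averaged 524 CPM in TCam-2 and 175 CPM in 2102 EP, and POU5F1 695 and 386 CPM. The other markers of that list were higher in 2102 EP.

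Marker lists of cell types also moved with the treatment. The summed level of 8 embryonal carcinoma markers was 492 to 504 CPM with I-BRD9 and 1523 to 1608 CPM with DMSO in TCam-2, and 1366 to 1421 CPM with I-BRD9 and 3091 to 3178 CPM with DMSO in 2102 EP. All 8 had counts in every group except TCam-2 with I-BRD9, where ZFP42 was at 0. The summed level of 8 neuron markers, cells in which axon guidance genes are prominent, was 58.7 to 61.4 CPM with I-BRD9 and 41.9 to 45.9 CPM with DMSO in TCam-2. In 2102 EP it was 34.1 to 37.1 CPM with I-BRD9 and 27.1 to 32.1 CPM with DMSO, where STMN2 was at 0. Without NEFL, which was higher with I-BRD9 in both lines, the other 7 summed to 7.19 to 9.29 CPM with I-BRD9 and 8.28 to 10.3 CPM with DMSO in TCam-2, and to 10.8 to 16.9 CPM with I-BRD9 and 17.3 to 20.7 CPM with DMSO in 2102 EP. RBFOX3 averaged 3.79 CPM with I-BRD9 and 12.1 CPM with DMSO in 2102 EP. DCX was also lower there by its mean, while SYN1, STMN2, SNAP25, ELAVL4 and ELAVL3 were higher. In TCam-2 the means of SNAP25, RBFOX3 and ELAVL3 were lower with I-BRD9 and those of SYN1, DCX, STMN2 and ELAVL4 higher. The 8 seminoma markers summed to 1240 to 1408 CPM with I-BRD9 and 1620 to 2123 CPM with DMSO in TCam-2, and to 145 to 154 and 160 to 242 CPM in 2102 EP, where NANOS3, PRAME and SOX17 were at 0 with I-BRD9. TFAP2C supplied most of each sum. KIT went the other way, averaging 49.4 CPM with I-BRD9 and 26.5 CPM with DMSO in TCam-2, and 1.71 and 1.29 CPM in 2102 EP. So did CXCR4 in 2102 EP, with 4.50 CPM with I-BRD9 and 1.26 CPM with DMSO. The other means were lower with I-BRD9. The 6 fibroblast markers, mostly COL1A2 in TCam-2 and COL1A1 in 2102 EP, summed to 87.9 to 135 CPM with I-BRD9 and 168 to 179 CPM with DMSO in TCam-2, and to 23.2 to 25.2 and 17.6 to 23.4 CPM in 2102 EP. The fibroblast markers DCN and LUM were at 0 in 2102 EP under both treatments, COL3A1 there with I-BRD9, and DCN in TCam-2 with DMSO. The 6 endothelial markers summed to 2.78 to 3.36 CPM with I-BRD9 and 6.96 to 7.64 CPM with DMSO in TCam-2, with PECAM1 at 0 with I-BRD9 and KDR with DMSO, and to 2.45 to 3.41 and 4.73 to 6.37 CPM in 2102 EP. The summed level of 6 blood markers was at most 4.40 CPM in any library, and CD3E was at 0 in every group. The part of these shifts in the results was not tested, and in RNA from whole cultures, fewer cells of a type cannot be told apart from less RNA per cell.

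Guidance genes changed in both directions in each line. The log2 fold changes come from an edgeR quasi-likelihood fit over 15614 genes, with an adjusted p under 0.05 as the threshold for a call. Their SE (±) is approximate. It is the absolute log2 fold change divided by the square root of the F value of its test. In TCam-2, 13 of the 53 genes rose with I-BRD9 and 13 fell, 24.5% each way, while 15.3% of all genes tested rose and 16.5% fell. In 2102 EP, 10 rose, which is 18.9% beside 18.2% of all genes tested, and 14 fell, which is 26.4% beside 18.6%. The median log2 fold change of the 53 genes was 0.06 in TCam-2, beside 0.01 over all genes tested, and 0.11 in 2102 EP, beside 0.00. Among the ligands, 7 rose and 6 fell in TCam-2, and 7 rose and 8 fell in 2102 EP. Among the receptors, 6 rose and 7 fell in TCam-2, and 3 rose and 6 fell in 2102 EP.

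Each line was set against its own DMSO libraries. In both lines 7 genes rose, namely EFNA1, EFNB2, EPHB3, PLXNA3, ROBO1, SEMA4F and SEMA4G. In both lines 9 fell, namely EFNA5, EPHA1, EPHB1, EPHB4, SEMA3A, SEMA4A, SEMA6A, SEMA6B and UNC5B. These are 13.2% and 17.0% of the 53 genes, beside 8.26% and 8.51% of all genes tested. SLIT2 fell in TCam-2 and rose in 2102 EP, 1.89% beside the 1.75% of all genes tested that were called in opposite directions. The genes called in neither line were 20, or 37.7%, beside 50% of all genes tested.

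**Figure D1:**
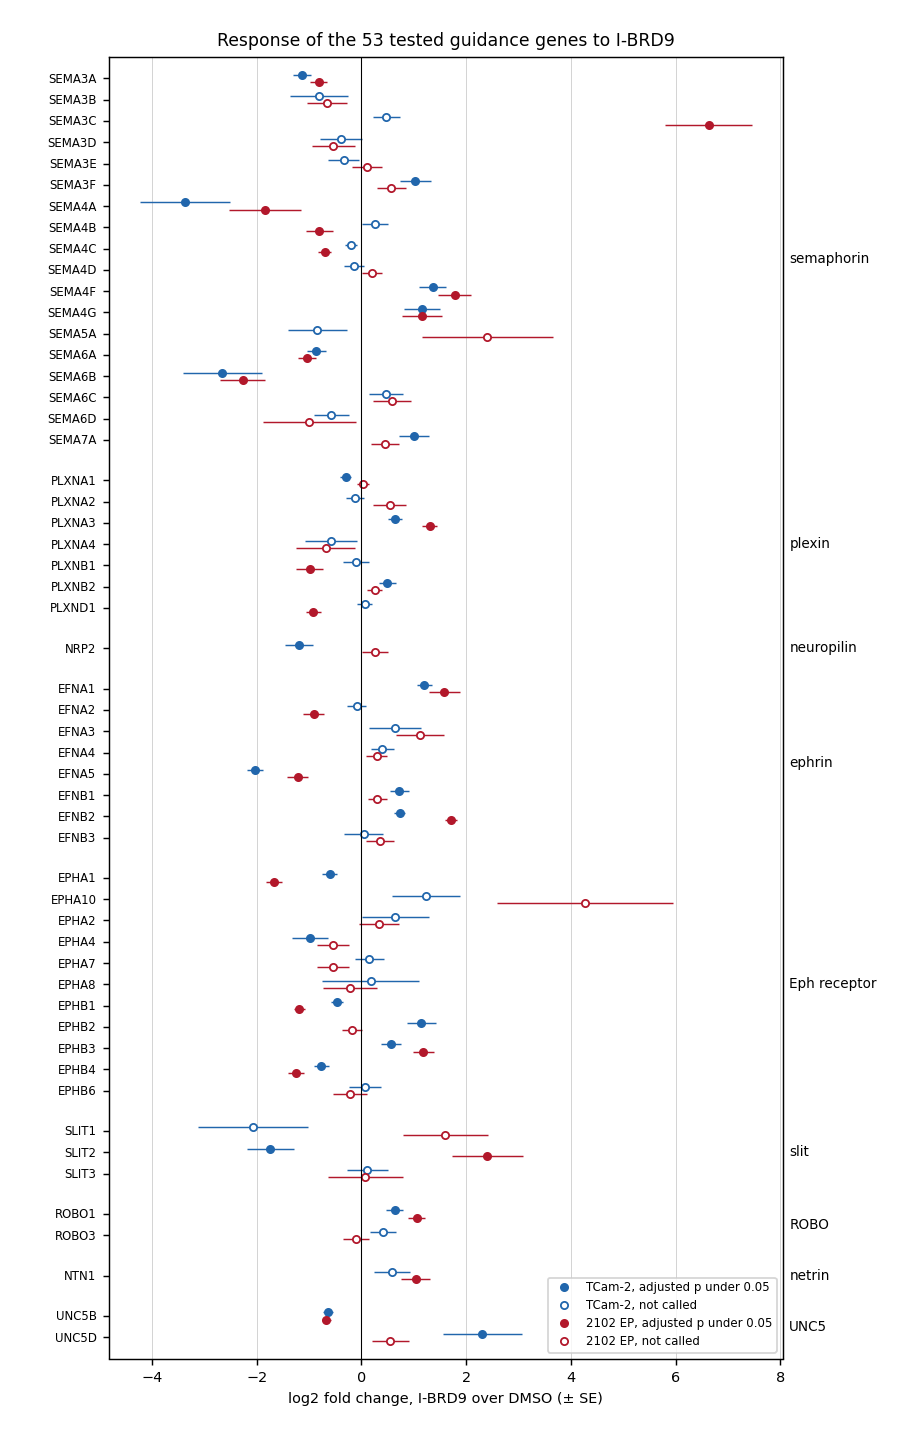
Log2 fold change of I-BRD9 over DMSO (x axis, ± SE) for the 53 tested genes, by family, in TCam-2 and 2102 EP, with filled points for an adjusted p under 0.05. Filled points lie on both sides of 0 in each line, and SLIT2 has filled points on opposite sides; the fitted values of SEMA3C and EPHA10 in 2102 EP, which had no counts with DMSO, and of SEMA6B in TCam-2, with 3 counts, depend on the small count that the fit adds.

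The summed level of the ephrins was higher and that of the Eph receptors lower with I-BRD9. The 8 ephrins summed to 213 ± 7.30 CPM with I-BRD9 and 173 ± 6.06 CPM with DMSO in TCam-2 (SD, n = 3), and to 196 ± 22.6 and 98.3 ± 6.32 CPM in 2102 EP. The 12 Eph receptors summed to 131 ± 9.12 CPM with I-BRD9 and 158 ± 13.3 CPM with DMSO in TCam-2, and to 122 ± 8.20 and 186 ± 9.75 CPM in 2102 EP. The treated and control ranges of these sums did not overlap in either line. The sums are given without a test. Without EFNB2 the other 7 ephrins summed to 130 ± 4.22 CPM with I-BRD9 and 123 ± 9.55 CPM with DMSO in TCam-2, and to 52.3 ± 3.16 and 54.3 ± 2.82 CPM in 2102 EP, with overlapping ranges in each line. In TCam-2, EFNA1 averaged 80.2 CPM with I-BRD9 and 34.9 CPM with DMSO, and EFNA5 14.5 and 59.1 CPM. EPHB4 averaged 39.1 CPM with I-BRD9 and 66.4 CPM with DMSO in TCam-2, and 24.1 and 57.7 CPM in 2102 EP. Its fall in TCam-2 was as large as that of the Eph receptor sum. The sums were not repeated without EPHB4 or EFNA1. By gene, 3 of the 8 ephrins rose and 1 fell in TCam-2, 37.5% and 12.5% beside 15.3% and 16.5% of all genes tested. In 2102 EP, 2 rose and 2 fell, 25.0% each way beside 18.2% and 18.6%. Of 11 Eph receptors tested, 2 rose and 4 fell in TCam-2, 18.2% and 36.4% beside 15.3% and 16.5%. In 2102 EP, 1 rose and 3 fell, 9.09% and 27.3% beside 18.2% and 18.6%.

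EFNB2 (chr13:106489731-106535662, minus strand, GRCh38) encodes ephrin-B2, the membrane-spanning ligand known for marking arteries during vessel formation. It had 83.4, 85.7 and 78.9 CPM in the TCam-2 libraries with I-BRD9, against 49.5, 55.1 and 44.8 CPM with DMSO. In 2102 EP it had 166, 127 and 139 CPM with I-BRD9, against 40.6, 40.4 and 51.1 CPM with DMSO. All treated libraries were above all control libraries of their line. The log2 fold change was 0.73 ± 0.11 in TCam-2 (adjusted p = 2.31e-05) and 1.71 ± 0.11 in 2102 EP (adjusted p = 5.93e-11). The rise was smaller in TCam-2 by 0.98 ± 0.16 on the log2 scale, with an adjusted p of 0.000121 for the difference.

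EFNA1 (chr1:155127460-155134857, plus strand), an ephrin anchored to the membrane by a lipid and a known ligand of EPHA2, rose in both lines from very unequal levels. It had 82.1, 82.3 and 76.3 CPM in TCam-2 with I-BRD9, against 35.6, 30.0 and 38.9 CPM with DMSO. The 2102 EP libraries had 4.50, 3.21 and 5.35 CPM with I-BRD9, against 2.29, 1.30 and 0.639 CPM with DMSO. No treated library overlapped the controls of its line. The log2 fold changes were 1.20 ± 0.15 in TCam-2 (adjusted p = 2.32e-06) and 1.58 ± 0.30 in 2102 EP (adjusted p = 0.000283).

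EFNA5 (chr5:107376889-107670895, minus strand), a lipid-anchored ephrin known for the ordering of retinal axons in the brain, fell in both lines. It had 14.6, 15.3 and 13.6 CPM in TCam-2 with I-BRD9, against 52.1, 56.6 and 68.8 CPM with DMSO. Its levels in 2102 EP were 5.45, 4.21 and 2.90 CPM with I-BRD9, against 8.81, 9.55 and 10.6 CPM with DMSO. Each treated library lay below each control library of its line. The fitted log2 fold change was -2.03 ± 0.15 in TCam-2 (adjusted p = 6.69e-10) and -1.22 ± 0.20 in 2102 EP (adjusted p = 3.67e-05). The difference of -0.81 ± 0.25 passed the threshold (adjusted p = 0.0345) but lost it when any of 8 libraries was left out, with adjusted p of 0.0545 to 0.129. It was also lost by limma voom (0.0897) and with the runs of neighbouring library numbers, the library code, as a block (0.0513). The 8 libraries were I-BRD9 replicates 1 and 3 and DMSO replicates 2 and 3 of TCam-2, and I-BRD9 replicates 1 and 2 and DMSO replicates 1 and 2 of 2102 EP.

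Among the other ephrins, EFNB1 rose in TCam-2 by 0.72 ± 0.19 (log2, adjusted p = 0.00453), and its log2 fold change in 2102 EP was 0.30 ± 0.18 (adjusted p = 0.21). The difference between the lines did not pass the test (adjusted p = 0.322). EFNA2 fell by 0.91 ± 0.20 on the log2 scale in 2102 EP (adjusted p = 0.000825), beside a value of -0.09 ± 0.19 in TCam-2 (adjusted p = 0.762). The difference of 0.82 ± 0.27 was at an adjusted p of 0.0485, and it lost the call without any 1 of 10 libraries (0.0605 to 0.125), all except DMSO replicate 2 of TCam-2 and I-BRD9 replicate 1 of 2102 EP. It was also lost under upper-quartile scaling and without the filter on low counts (0.0501 each). EFNA3, EFNA4 and EFNB3 were called in neither line, with log2 fold changes of 0.04 to 1.12.

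The Eph receptors that were called in both lines mostly fell. EPHB4 (chr7:100802565-100827521, minus strand), the receptor of ephrin-B2 known for marking veins, had 36.6, 33.0 and 47.7 CPM in TCam-2 with I-BRD9, against 60.8, 63.9 and 74.6 CPM with DMSO. Levels in 2102 EP were 17.5, 27.2 and 27.6 CPM with I-BRD9, against 61.8, 56.2 and 55.1 CPM with DMSO. Treated and control libraries did not overlap in either line. On the log2 scale the fold change was -0.76 ± 0.15 in TCam-2 (adjusted p = 0.000766) and -1.25 ± 0.16 in 2102 EP (adjusted p = 7.46e-06). The ligand EFNB2 was thus higher and its receptor EPHB4 lower in each line, a pair named with its values in view. The other EPHB receptors did not share 1 direction. EPHB1 fell in both lines, EPHB3 rose in both, EPHB2 rose in TCam-2, and EPHB6 was called in neither. Exons of EPHB4 overlap those of SLC12A9 on the other strand, which held 2025 counts, and whether reads were counted by strand is not given in the sources used here.

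EPHB1, a receptor of B-class ephrins, had 18.8, 18.0 and 20.2 CPM in TCam-2 with I-BRD9, against 25.9, 26.7 and 26.2 CPM with DMSO. In 2102 EP it had 23.3, 22.9 and 21.2 CPM with I-BRD9, against 56.5, 49.9 and 46.8 CPM with DMSO. The treated levels of both lines were near 20 CPM, and the control level of 2102 EP was the higher of the controls. This gave a log2 fold change of -0.47 ± 0.11 in TCam-2 (adjusted p = 0.00296) and -1.18 ± 0.11 in 2102 EP (adjusted p = 1.8e-08), and the fall was smaller in TCam-2 by 0.72 ± 0.16 (adjusted p = 0.00325).

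EPHA1, an Eph receptor known from epithelia, had 14.9, 14.2 and 15.8 CPM in TCam-2 with I-BRD9, against 22.4, 23.9 and 22.0 CPM with DMSO. The 2102 EP libraries had 7.09, 10.6 and 8.59 CPM with I-BRD9, against 27.1, 29.4 and 27.7 CPM with DMSO. No library overlapped the other treatment of its line. The log2 fold change was -0.61 ± 0.14 in TCam-2 (adjusted p = 0.00204) and -1.67 ± 0.15 in 2102 EP (adjusted p = 9.12e-09), a difference of 1.06 ± 0.21 (adjusted p = 0.000922). Its exons overlap those of ZYX on the other strand, which held 11238 counts.

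EPHB3 and EPHB2, receptors known for sorting cells along the intestinal crypt, are given next. EPHB3 had 39.2, 47.6 and 41.3 CPM in TCam-2 with I-BRD9, against 21.6, 31.0 and 34.0 CPM with DMSO. Its levels in 2102 EP were 49.1, 40.0 and 27.9 CPM with I-BRD9, against 17.2, 19.1 and 15.1 CPM with DMSO. Treated libraries were above the controls in each line, with a wide spread in 2102 EP. The fitted log2 fold change was 0.56 ± 0.19 in TCam-2 (adjusted p = 0.0376) and 1.18 ± 0.20 in 2102 EP (adjusted p = 0.00035). The TCam-2 value did not pass with I-BRD9 replicate 2 or 3 left out (adjusted p of 0.121 and 0.0713), nor with DMSO replicate 1 or 2 left out (0.121 and 0.0639), nor with the library code as a block (0.0585).

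EPHB2 had 2.27, 3.72 and 3.83 CPM in TCam-2 with I-BRD9, against 1.53, 1.17 and 1.71 CPM with DMSO. Levels in 2102 EP were 14.2, 11.1 and 13.2 CPM with I-BRD9, against 15.6, 13.9 and 14.1 CPM with DMSO. Treated and control libraries were apart in TCam-2 and overlapped in 2102 EP. On the log2 scale the fold change was 1.14 ± 0.28 in TCam-2 (adjusted p = 0.00271) and -0.18 ± 0.19 in 2102 EP (adjusted p = 0.49), and the difference of 1.32 ± 0.34 passed the test (adjusted p = 0.0096).

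EPHA4, which binds ephrins of both classes, fell in TCam-2 by 0.98 ± 0.35 on the log2 scale (adjusted p = 0.0343), beside -0.54 ± 0.31 in 2102 EP (adjusted p = 0.18). The TCam-2 value did not pass with I-BRD9 replicate 1 or 3 left out (0.141 and 0.142), nor with DMSO replicate 1 or 3 left out (0.102 and 0.0743). EPHA2, EPHA7, EPHA8, EPHA10 and EPHB6 were called in neither line. EPHA10, which like EPHB6 lacks an active kinase, had 7 counts with I-BRD9 and 0 with DMSO over the 3 libraries of 2102 EP, at least 2.22-fold higher than a group floor of 3 counts. EPHA6 held 0 counts with I-BRD9 and 5 with DMSO in TCam-2, and 4 and 5 in 2102 EP.

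The sequences before the start sites of EFNB2, EPHB4 and EFNA5 are shown as examples of the ephrin and Eph receptor genes called in both lines. Others, such as EFNA1, were called in both lines too. The 3 were chosen after their values were seen, among genes whose window holds no exon of GENCODE release 29. Each is 200 bases long, ends 50 bases before the RefSeq start, and is written 5′ to 3′ on the strand of the gene, with GC boxes (GGGCGG on either strand) in capitals. On GRCh38.p14 the windows are chr13:106535713-106535912 for EFNB2, chr7:100827574-100827773 for EPHB4 and chr5:107670988-107671187 for EFNA5, all on the minus strand.
EFNB2: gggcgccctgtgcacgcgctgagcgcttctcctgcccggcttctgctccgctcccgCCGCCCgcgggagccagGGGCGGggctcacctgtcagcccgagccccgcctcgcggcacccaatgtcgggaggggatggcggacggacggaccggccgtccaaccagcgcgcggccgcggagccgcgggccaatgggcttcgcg
EPHB4: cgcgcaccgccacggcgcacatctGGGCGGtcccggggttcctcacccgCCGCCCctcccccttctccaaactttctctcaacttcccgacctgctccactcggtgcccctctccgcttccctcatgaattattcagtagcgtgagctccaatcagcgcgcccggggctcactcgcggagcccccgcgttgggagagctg
EFNA5: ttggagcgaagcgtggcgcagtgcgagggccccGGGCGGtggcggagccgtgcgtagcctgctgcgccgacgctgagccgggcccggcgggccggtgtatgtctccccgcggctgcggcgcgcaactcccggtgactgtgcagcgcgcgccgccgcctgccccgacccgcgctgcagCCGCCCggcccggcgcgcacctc
Their GC contents were 78.0%, 67.0% and 80.0%, with 30, 20 and 35 CpG dinucleotides. Each window held 2 GC boxes, and none held the CRE (TGACGTCA), the AP-1 site (TGANTCA), the E-box (CACGTG), the TATA box (TATAAA) or the octamer (ATGCAAAT) on either strand. Over all 35116 RefSeq promoter entries, 35.0% of windows of this kind held a GC box and the median GC content was 57.5%. Over the 83 entries of the guidance genes, which cover 52 of the 61, 57.8% held one and the median was 66.5%. Of the genes shown, the one that rose and those that fell both held these features. Over the entries of genes that rose in both lines with at least 3 CPM in a group, 4 of 9 held a GC box. For genes that fell in both lines, 4 of 4 entries did. Those entries cover only part of the 8 such genes, and they include the EPHB4 and EFNA5 windows shown. These shares were not tested.

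**Figure D2:**
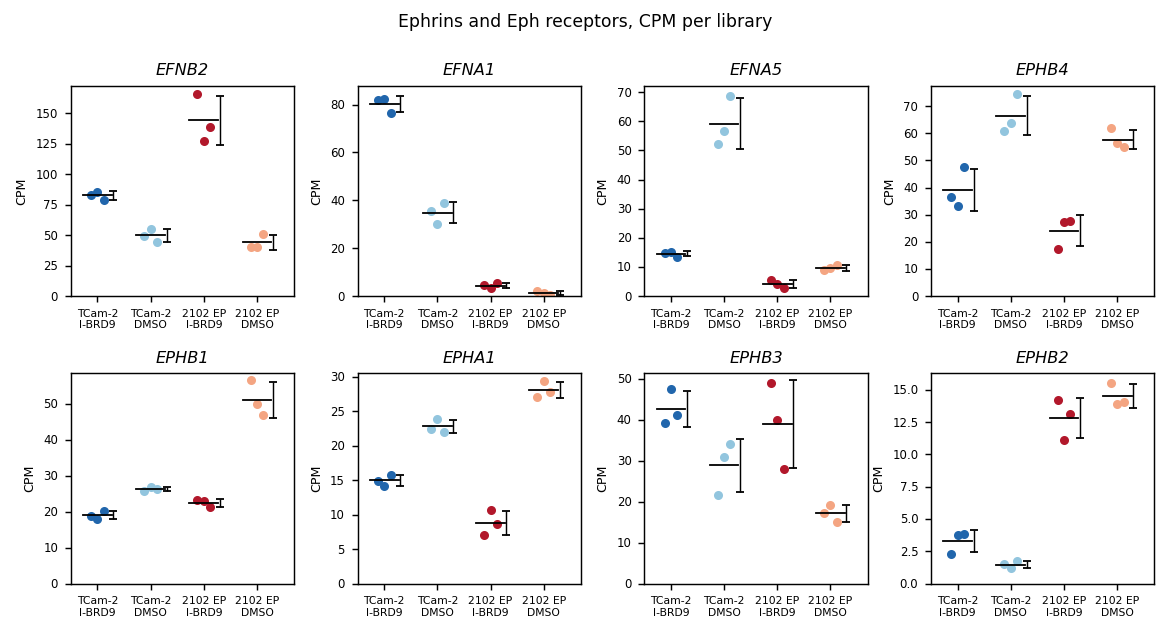
CPM (y axis, from 0) of 3 ephrins and 5 Eph receptors in each library of the 4 groups, with the mean as a line and the SD as a bar. EFNB2 and EFNA1 lie higher and EFNA5, EPHB4, EPHB1 and EPHA1 lower with I-BRD9 in each line, and EPHB2 lies apart with I-BRD9 in TCam-2 and overlaps in 2102 EP.

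Among the semaphorins, 4 of 18 tested genes rose and 4 fell in TCam-2, 22.2% each way beside the 15.3% and 16.5% of all genes tested. In 2102 EP, 3 rose and 6 fell, 16.7% and 33.3% beside 18.2% and 18.6%. SEMA6A (chr5:116443616-116574934, minus strand), a membrane-spanning semaphorin that binds the plexins PLXNA2 and PLXNA4, supplied the largest share of the counts of the 61 genes in each group. That share was 51.9% to 58.1% with I-BRD9 and 62.4% to 72.3% with DMSO in TCam-2, and 34.5% to 41.7% with I-BRD9 and 52.9% to 56.8% with DMSO in 2102 EP. It is a share of transcript ends counted, since the libraries were primed at the polyadenylated end. SEMA6A had 766, 871 and 977 CPM in TCam-2 with I-BRD9, against 1157, 1624 and 1959 CPM with DMSO. In 2102 EP it had 378, 432 and 324 CPM with I-BRD9, against 743, 820 and 763 CPM with DMSO. Treated libraries were below the controls in each line, and the controls of TCam-2 were spread widely. This gave a log2 fold change of -0.86 ± 0.17 in TCam-2 (adjusted p = 0.00302) and -1.04 ± 0.18 in 2102 EP (adjusted p = 0.000814). In a fit of the 6 TCam-2 libraries alone the adjusted p was 0.0533.

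SEMA3A, the secreted semaphorin known for collapsing growth cones through NRP1 and A-class plexins, fell in both lines. It had 5.24, 5.77 and 5.57 CPM in TCam-2 with I-BRD9, against 11.3, 13.9 and 11.1 CPM with DMSO. The 2102 EP libraries had 12.3, 13.7 and 11.6 CPM with I-BRD9, against 22.0, 19.5 and 25.1 CPM with DMSO. Treated and control libraries were apart in each line. The log2 fold change was -1.14 ± 0.17 in TCam-2 (adjusted p = 2.28e-05) and -0.82 ± 0.16 in 2102 EP (adjusted p = 0.000256). NRP1, its co-receptor, was not tested. It had 23 counts with I-BRD9 and 57 with DMSO over the TCam-2 libraries, and 3 and 15 over those of 2102 EP, 5.25-fold lower with a 95% counting interval of 1.48 to 28.3.

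SEMA6B, another membrane-spanning semaphorin, had 2.18, 0.801 and 0.781 CPM in 2102 EP with I-BRD9, against 5.26, 6.96 and 5.50 CPM with DMSO. The libraries did not overlap, and the log2 fold change was -2.27 ± 0.43 (adjusted p = 0.000251). In TCam-2 it was near the floor, with 3 counts over the I-BRD9 libraries and 20 over the DMSO libraries, 6.92-fold lower with a 95% counting interval of 2.05 to 36.4. It was called there too (adjusted p = 0.0095). SEMA4A, a semaphorin known from immune cells, was called lower in both lines at a low level. It had 5 counts with I-BRD9 and 54 with DMSO in TCam-2, and 19 and 64 in 2102 EP. Its 2102 EP libraries overlapped, with 0, 1.60 and 0.335 CPM with I-BRD9, against 2.97, 3.18 and 1.41 CPM with DMSO.

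SEMA4F and SEMA4G, semaphorins of the membrane-spanning class, were the ones that rose in both lines. SEMA4F had 12.3, 9.97 and 10.2 CPM in TCam-2 with I-BRD9, against 2.91, 4.67 and 5.02 CPM with DMSO. Its levels in 2102 EP were 5.18, 3.81 and 4.35 CPM with I-BRD9, against 1.14, 1.80 and 0.895 CPM with DMSO. Treated and control libraries were apart in each line. The fitted log2 fold change was 1.36 ± 0.25 in TCam-2 (adjusted p = 0.0002) and 1.78 ± 0.31 in 2102 EP (adjusted p = 9.89e-05).

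SEMA4G had 3.36, 4.20 and 4.52 CPM in TCam-2 with I-BRD9, against 1.18, 2.12 and 2.08 CPM with DMSO, and 2.73, 2.10 and 2.23 CPM in 2102 EP with I-BRD9, against 0.801, 1.30 and 1.02 CPM with DMSO. The libraries did not overlap, and the log2 fold changes were 1.15 ± 0.34 in TCam-2 (adjusted p = 0.0123) and 1.16 ± 0.39 in 2102 EP (adjusted p = 0.0211). With DMSO replicate 1 left out, the TCam-2 value no longer passed (adjusted p = 0.0632). The 2102 EP value did not pass with I-BRD9 replicate 1 left out (0.0663), nor with DMSO replicate 1 or 3 left out (0.0833 and 0.0501). Its exons overlap those of MRPL43 on the other strand, which held 9806 counts.

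SEMA3C (chr7:80742538-80922359, minus strand), a secreted semaphorin known for its part in the outflow tract of the heart, had 1.36, 1.40 and 1.45 CPM in 2102 EP with I-BRD9 and stood at 0 counts in all 3 libraries with DMSO. The 37 treated counts were at least 11.8-fold higher than a group floor of 3 counts, and the gene was called (adjusted p = 2.47e-06). In TCam-2 it had 7.32, 8.53 and 6.73 CPM with I-BRD9, against 6.14, 5.63 and 4.41 CPM with DMSO. The TCam-2 libraries were apart, but the log2 fold change of 0.48 ± 0.26 did not pass (adjusted p = 0.172). The difference between the lines was called (adjusted p = 0.000101), with a fitted size that depends on the small count added to 0.

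SEMA3F, a secreted semaphorin that uses NRP2, had 7.61, 5.41 and 5.68 CPM in TCam-2 with I-BRD9, against 2.95, 3.71 and 2.45 CPM with DMSO. Levels in 2102 EP were 8.86, 4.81 and 5.80 CPM with I-BRD9, against 5.72, 3.89 and 3.32 CPM with DMSO, which overlapped. On the log2 scale the fold change was 1.03 ± 0.29 in TCam-2 (adjusted p = 0.00831) and 0.57 ± 0.28 in 2102 EP (adjusted p = 0.121), and the difference was not called (adjusted p = 0.519). Without I-BRD9 replicate 1 of TCam-2 the adjusted p there was 0.0577.

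SEMA7A, a lipid-anchored semaphorin that also binds integrins, had 6.82, 7.81 and 3.13 CPM in TCam-2 with I-BRD9, against 2.60, 2.97 and 3.31 CPM with DMSO. In 2102 EP it had 7.23, 7.21 and 8.70 CPM with I-BRD9, against 5.61, 6.13 and 5.24 CPM with DMSO. The TCam-2 libraries overlapped through I-BRD9 replicate 3. This gave a log2 fold change of 1.00 ± 0.29 in TCam-2 (adjusted p = 0.00927) and 0.45 ± 0.26 in 2102 EP (adjusted p = 0.199). With I-BRD9 replicate 1 or 2 left out the TCam-2 value did not pass (0.053 and 0.0726).

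Of the remaining semaphorins, SEMA4C, a partner of PLXNB2, fell by 0.70 ± 0.12 on the log2 scale in 2102 EP (adjusted p = 7.72e-05), beside -0.20 ± 0.12 in TCam-2 (adjusted p = 0.21). The difference of 0.50 ± 0.17 (adjusted p = 0.0481) was lost without any 1 of 9 libraries (0.0536 to 0.14), all except I-BRD9 replicate 2 and DMSO replicate 1 of TCam-2 and I-BRD9 replicate 2 of 2102 EP. It was also lost under upper-quartile or total-count scaling (0.0543 and 0.0524), without the filter on low counts (0.0637), with a filter of 1 CPM (0.0584) and with the library code as a block (0.062). SEMA4B fell by 0.80 ± 0.26 in 2102 EP (adjusted p = 0.0188) with overlapping libraries. It did not pass with I-BRD9 replicate 1 left out (0.0789), with DMSO replicate 1 or 2 left out (0.0739 and 0.102), or among the 6 libraries of 2102 EP alone (0.0765). SEMA3B, SEMA3D, SEMA3E, SEMA4D, SEMA5A, SEMA6C and SEMA6D were called in neither line. SEMA3G and SEMA5B were not tested, at 45 and 33 counts over the 12 libraries.

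Of the plexins, the receptors of semaphorins, 2 of 7 tested genes rose and 1 fell in TCam-2, 28.6% and 14.3% beside 15.3% and 16.5% of all genes tested. In 2102 EP, 1 rose and 2 fell, 14.3% and 28.6% beside 18.2% and 18.6%. PLXNA3, an A-class plexin that works with NRP2, had 32.6, 31.8 and 30.6 CPM in TCam-2 with I-BRD9, against 18.7, 21.9 and 20.7 CPM with DMSO. The 2102 EP libraries had 20.7, 16.6 and 16.1 CPM with I-BRD9, against 7.44, 6.60 and 7.54 CPM with DMSO. Treated libraries were above the controls in each line. The log2 fold change was 0.63 ± 0.13 in TCam-2 (adjusted p = 0.000733) and 1.30 ± 0.15 in 2102 EP (adjusted p = 5.02e-07). The difference of -0.67 ± 0.20 (adjusted p = 0.0296) did not pass with any 1 of 6 libraries left out. These were TCam-2 I-BRD9 replicates 2 and 3 (0.0561 and 0.0679), TCam-2 DMSO replicates 2 and 3 (0.0775 and 0.0551), 2102 EP I-BRD9 replicate 1 (0.0736) and 2102 EP DMSO replicate 2 (0.0789). Its exons overlap those of LAGE3 on the other strand, which held 17423 counts.

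PLXND1, a receptor of SEMA3E known from vessel patterning, fell by 0.92 ± 0.14 on the log2 scale in 2102 EP (adjusted p = 2.82e-05), with 19.4 ± 1.75 CPM with I-BRD9 and 36.7 ± 4.72 CPM with DMSO (SD, n = 3). In TCam-2 its log2 fold change was 0.06 ± 0.15 (adjusted p = 0.804), and the difference of 0.98 ± 0.21 was called (adjusted p = 0.00211). PLXNB1, a receptor of SEMA4D, fell by 0.99 ± 0.26 in 2102 EP (adjusted p = 0.00398). PLXNB2 rose by 0.49 ± 0.16 in TCam-2 (adjusted p = 0.0217), though not with replicate 1 of the I-BRD9 or of the DMSO libraries left out (0.117 and 0.0844). PLXNA1 fell there by 0.30 ± 0.11 (adjusted p = 0.04). That small change did not pass with I-BRD9 replicate 2 or 3 left out (0.137 and 0.122), with DMSO replicate 2 or 3 left out (0.143 and 0.0851), by DESeq2 (0.0516), or under upper-quartile or total-count scaling (0.0664 and 0.122). PLXNA2 and PLXNA4 were called in neither line, and PLXNC1 was not tested at 62 counts over the 12 libraries.

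NRP2, the neuropilin of SEMA3F and SEMA3C, had 2.27, 2.28 and 3.13 CPM in TCam-2 with I-BRD9, against 5.08, 5.52 and 7.10 CPM with DMSO. Its levels in 2102 EP were 8.04, 5.21 and 6.25 CPM with I-BRD9, against 4.58, 5.78 and 5.88 CPM with DMSO. The libraries were apart in TCam-2 and overlapped in 2102 EP. The fitted log2 fold change was -1.20 ± 0.27 in TCam-2 (adjusted p = 0.00121) and 0.26 ± 0.25 in 2102 EP (adjusted p = 0.45), and the difference of -1.46 ± 0.36 was called (adjusted p = 0.0082).

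**Figure D3:**
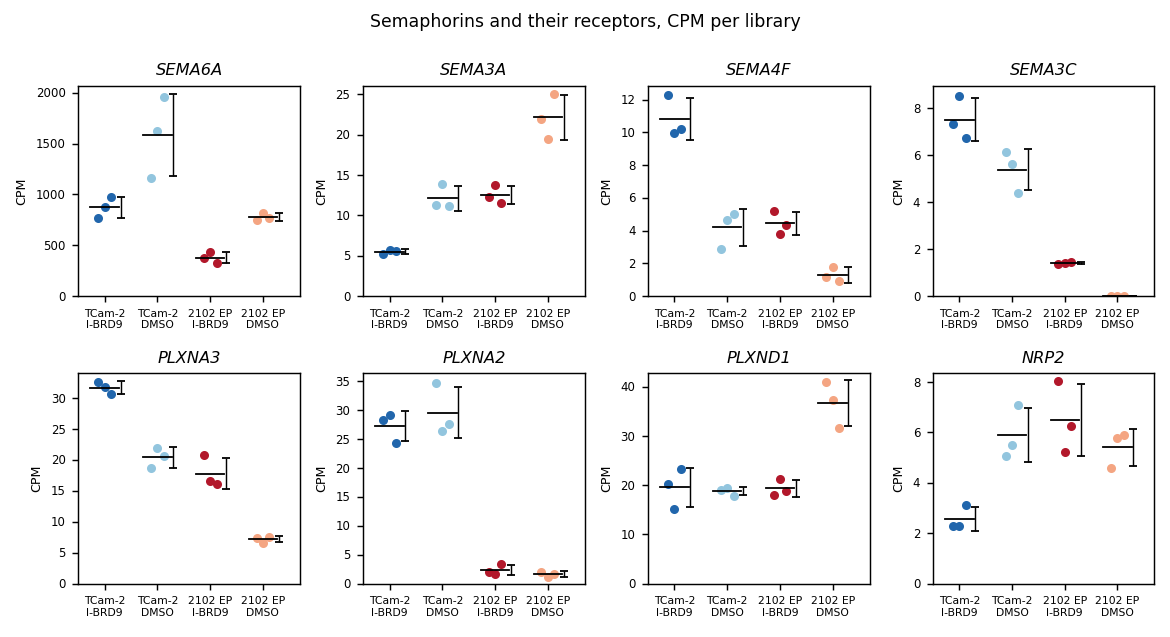
CPM (y axis, from 0) of 4 semaphorins, 3 plexins and the neuropilin NRP2 in each library of the 4 groups, with the mean as a line and the SD as a bar. SEMA6A and SEMA3A lie lower and SEMA4F and PLXNA3 higher with I-BRD9 in each line, SEMA3C is at 0 in the 3 DMSO libraries of 2102 EP, and NRP2 lies lower with I-BRD9 in TCam-2 while its 2102 EP libraries overlap.

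Of the slits and their receptors, SLIT2 was the gene that moved in opposite directions. SLIT2 (chr4:20253260-20620561, plus strand) encodes a secreted repellent that binds ROBO1 and ROBO2. It had 1.29, 1.56 and 0.928 CPM in TCam-2 with I-BRD9, against 4.37, 3.82 and 4.53 CPM with DMSO. Levels in 2102 EP were 1.09, 0.601 and 1.67 CPM with I-BRD9, against 0.458, 0.118 and 0 CPM with DMSO. Treated and control libraries were apart in each line, below the controls in TCam-2 and above them in 2102 EP, from 34 and 110 counts in TCam-2 and 29 and 5 counts in 2102 EP. On the log2 scale the fold change was -1.74 ± 0.45 in TCam-2 (adjusted p = 0.00466) and 2.40 ± 0.68 in 2102 EP (adjusted p = 0.00792). The difference was -4.15 ± 0.81 (adjusted p = 0.00101).

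ROBO1, a receptor of SLIT2, had 17.0, 16.2 and 18.9 CPM in TCam-2 with I-BRD9, against 10.2, 12.8 and 10.5 CPM with DMSO. In 2102 EP it had 14.6, 16.6 and 18.7 CPM with I-BRD9, against 6.75, 9.08 and 8.31 CPM with DMSO. It rose in both lines without overlap. This gave a log2 fold change of 0.63 ± 0.16 in TCam-2 (adjusted p = 0.00462) and 1.05 ± 0.17 in 2102 EP (adjusted p = 4.04e-05). ROBO3, known for letting axons cross the midline, was called in neither line, and neither were SLIT1 and SLIT3. ROBO2 was not tested. It had 10 counts with I-BRD9 and 39 with DMSO in TCam-2, and 1 and 0 in 2102 EP.

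NTN1 encodes netrin-1, the secreted cue that attracts axons through DCC and repels them through UNC5 receptors. In TCam-2 it had 3.11, 2.64 and 4.52 CPM with I-BRD9, against 1.85, 2.44 and 2.45 CPM with DMSO. NTN1 in 2102 EP had 15.4, 11.6 and 16.1 CPM with I-BRD9, against 8.86, 8.72 and 3.32 CPM with DMSO. All treated libraries were above the controls of their line. The log2 fold change was 0.59 ± 0.34 in TCam-2 (adjusted p = 0.212) and 1.03 ± 0.27 in 2102 EP (adjusted p = 0.00519). The difference between the lines was not called (adjusted p = 0.583). NTN1 held values more than 0.01 from a whole number, a sign of reads shared between genes, in 3 of the 12 libraries, SEMA4D in 4, PLXNA1 in 3 and SEMA4F in 2. NTN4 and NTN5 were not tested, at 31 and 11 counts over the 12 libraries.

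UNC5B, a receptor of netrin-1 also known from vessel branching, fell in both lines by nearly the same amount, -0.63 ± 0.09 in TCam-2 (log2, adjusted p = 1.19e-05) and -0.67 ± 0.09 in 2102 EP (adjusted p = 6.11e-06). Its level was 64.6 ± 2.12 CPM with I-BRD9 and 100.2 ± 10.5 CPM with DMSO in TCam-2, and 53.8 ± 3.44 and 85.6 ± 4.96 CPM in 2102 EP (SD, n = 3). UNC5D had 0.593, 0.240 and 1.62 CPM in TCam-2 with I-BRD9, against 0.118, 0.212 and 0.122 CPM with DMSO. The 2102 EP libraries had 8.45, 5.81 and 9.82 CPM with I-BRD9, against 6.06, 3.30 and 7.03 CPM with DMSO, which overlapped. The TCam-2 rise of 2.31 ± 0.75 (log2, adjusted p = 0.0215) rested on 22 and 4 counts. It did not pass with I-BRD9 replicate 3 left out (0.212), with DMSO replicate 1 or 3 left out (0.0764 and 0.0714), by limma voom (0.177), or among the 6 TCam-2 libraries alone (0.0506). In 2102 EP the log2 fold change of UNC5D was 0.55 ± 0.35 (adjusted p = 0.231).

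**Figure D4:**
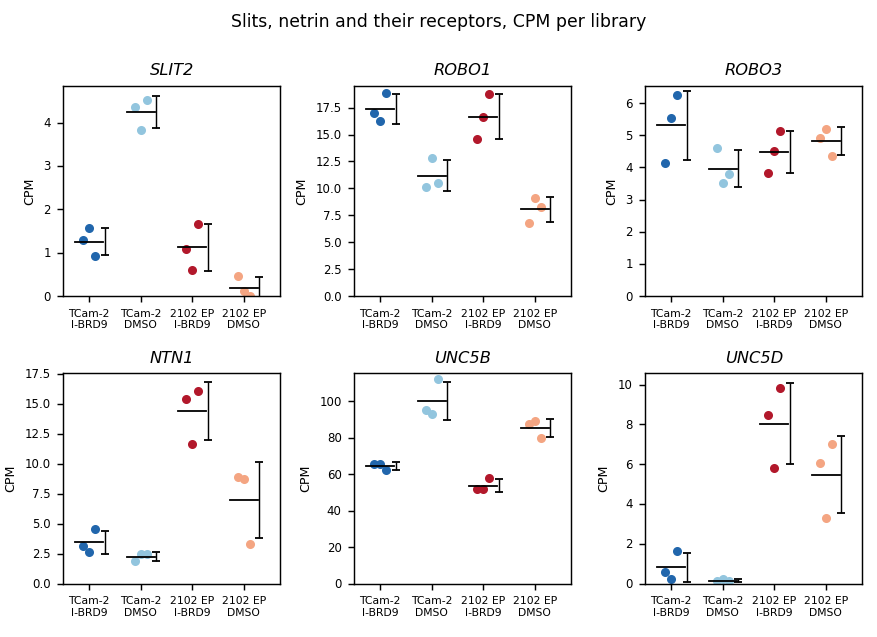
CPM (y axis, from 0) of SLIT2, ROBO1, ROBO3, NTN1, UNC5B and UNC5D in each library of the 4 groups, with the mean as a line and the SD as a bar. SLIT2 lies lower with I-BRD9 in TCam-2 and higher in 2102 EP, while ROBO1 lies higher and UNC5B lower with I-BRD9 in each line.

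Over the 53 genes, the effect of I-BRD9 differed between the lines for 12. The difference, TCam-2 minus 2102 EP, was positive for 6 (EPHB2, EPHA1, PLXND1, EFNA2, EPHB1 and SEMA4C) and negative for 6 (SEMA3C, SLIT2, NRP2, EFNB2, EFNA5 and PLXNA3), 11.3% each way. Over all genes tested it was called positive for 5.9% and negative for 7.19%. Of the 6 positive genes 4 are receptors, and of the 6 negative genes 4 are ligands, from 23 receptors and 30 ligands tested. Whether role and direction go together was not tested. The calls of EFNA2, SEMA4C, EFNA5 and PLXNA3 were lost under some alternatives, as given above.

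A list of 79 other genes of these pathways, among them co-receptors, further cues and the proteins that carry the signal inside the cell, was read for the same comparisons. Of 72 that were tested, 15 rose and 7 fell in TCam-2, 20.8% and 9.72% beside 15.3% and 16.5% of all genes tested. In 2102 EP, 19 rose and 12 fell, 26.4% and 16.7% beside 18.2% and 18.6%. Their median log2 fold change was 0.07 in TCam-2, beside 0.01 over all genes tested, and 0.15 in 2102 EP, beside 0.00. In TCam-2 the largest change among those with at least 10 CPM was the fall of CXCR4, the chemokine receptor that guides migrating primordial germ cells, with 3.90 ± 0.369 CPM with I-BRD9 and 129 ± 3.17 CPM with DMSO (SD, n = 3). Its log2 fold change was -5.05 ± 0.16 (adjusted p = 2.42e-16). CXCR4 rose in 2102 EP by 1.85 ± 0.26 (log2, adjusted p = 8.46e-06), with 4.50 ± 1.15 CPM with I-BRD9 and 1.26 ± 0.553 CPM with DMSO, and the difference of -6.90 ± 0.30 was called (adjusted p = 2.09e-13).

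Further changes in TCam-2 were of genes that act inside the cell or at its surface. RRAS, a small GTPase that plexins act on, rose by 1.62 ± 0.23 on the log2 scale (adjusted p = 7.61e-06). GPC1, a glypican that binds slits, rose by 1.28 ± 0.13 (adjusted p = 7.47e-08), and MICAL2, an enzyme that oxidises actin, by 1.08 ± 0.20 (adjusted p = 0.000249). SRGAP1, a GTPase-activating protein that binds ROBO1, fell by 1.05 ± 0.12 (adjusted p = 6.33e-07), with 64.3 ± 0.696 CPM with I-BRD9 and 133 ± 5.59 CPM with DMSO.

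In 2102 EP the largest change among those with at least 10 CPM was the fall of DPYSL3, a collapsin response mediator that acts on the cytoskeleton, with 117 ± 7.24 CPM with I-BRD9 and 403 ± 9.78 CPM with DMSO and a log2 fold change of -1.79 ± 0.08 (adjusted p = 1.65e-13). DPYSL3 rose in TCam-2 by 0.59 ± 0.09 (adjusted p = 1.82e-05), and the difference of 2.38 ± 0.12 was called (adjusted p = 3.65e-12). CRMP1, of the same family and known for SEMA3A signalling, fell in 2102 EP by 1.25 ± 0.30 (adjusted p = 0.00249). In TCam-2 it rose by 1.28 ± 0.36 (adjusted p = 0.00922), a difference of 2.53 ± 0.47 (adjusted p = 0.000705). GPC1 rose in 2102 EP by 1.24 ± 0.14 (adjusted p = 5.7e-07). SRGAP1 rose by 1.42 ± 0.18 (adjusted p = 1.75e-06), with 14.9 ± 3.75 CPM with I-BRD9 and 5.52 ± 1.41 CPM with DMSO. Like SLIT2 it thus moved in opposite directions, here with the fall in TCam-2, and the difference of -2.47 ± 0.21 was called (adjusted p = 2.96e-08).

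DCC, the attracting netrin receptor, was not tested, with 69 counts over the 12 libraries. NEO1, its relative, had a log2 fold change of 0.23 ± 0.14 in TCam-2 (adjusted p = 0.216) and rose by 0.40 ± 0.14 in 2102 EP (adjusted p = 0.0322). DRAXIN, a secreted repellent that binds DCC, fell in both lines. It had 0.189 ± 0.138 CPM with I-BRD9 and 2.01 ± 0.280 CPM with DMSO in TCam-2, and 35.2 ± 3.46 and 81.5 ± 8.60 CPM in 2102 EP (SD, n = 3). The fitted log2 fold change was -3.34 ± 0.42 in TCam-2 (adjusted p = 1.86e-06) and -1.22 ± 0.12 in 2102 EP (adjusted p = 3.9e-08).

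The lines differed in many guidance genes under either treatment. With I-BRD9, 22 of the 53 genes were higher in TCam-2 and 15 lower, which is 41.5% and 28.3%, beside 31.1% and 31.1% of all genes tested. With DMSO, 17 were higher and 16 lower, 32.1% and 30.2%, close to the 31.7% and 30.8% of all genes tested. Under both treatments 14 genes were higher and 12 were lower in TCam-2. The same was not counted over all genes tested, so these numbers cannot be read as a trait of the guidance genes.

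Several genes higher in TCam-2 with DMSO were low in 2102 EP. SEMA3C had 141 counts over the TCam-2 libraries and 0 over those of 2102 EP, at least 45.2-fold higher than a group floor of 3 counts. SEMA6D, a membrane-spanning semaphorin, had 6.83 ± 1.04 CPM in TCam-2 and 0.245 ± 0.135 CPM in 2102 EP (log2 fold change 4.75 ± 0.49, adjusted p = 1.6e-08). EFNA1 had 34.9 ± 4.50 and 1.41 ± 0.830 CPM (4.59 ± 0.23, adjusted p = 3.5e-13). PLXNA2, a receptor of SEMA6A, had 29.6 ± 4.46 CPM in TCam-2 and 1.59 ± 0.502 CPM in 2102 EP (4.20 ± 0.24, adjusted p = 6.79e-13).

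SLIT2, after its opposite changes, had a log2 difference between the lines of 0.17 ± 0.50 with I-BRD9 (adjusted p = 0.779), against 4.32 ± 0.60 with DMSO (adjusted p = 1.49e-06). SLIT3 was higher in TCam-2 by 3.49 ± 0.52 with I-BRD9 and by 3.45 ± 0.53 with DMSO. EFNA5 was higher by 1.80 ± 0.19 with I-BRD9 and by 2.61 ± 0.16 with DMSO, and SEMA4F by 1.29 ± 0.25 and 1.71 ± 0.31. SEMA6A was higher by 1.21 ± 0.18 with I-BRD9 and by 1.03 ± 0.17 with DMSO. With I-BRD9, EFNA1 was higher in TCam-2 by 4.21 ± 0.19, PLXNA2 by 3.55 ± 0.22 and SEMA3C by 2.41 ± 0.30. The adjusted p of the genes named here besides SLIT2 was 0.000341 or less. SEMA6D then had 125 counts in TCam-2 and 3 in 2102 EP, a ratio of 40.5 with a 95% counting interval of 13.5 to 199.

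Lower in TCam-2 with DMSO were UNC5D by -5.03 ± 0.58 on the log2 scale (adjusted p = 1.19e-07), EPHA2, an Eph receptor of epithelia that binds EFNA1, by -3.33 ± 0.52 (adjusted p = 6.95e-06), and EPHB2 by -3.30 ± 0.24 (adjusted p = 6.48e-11). EPHA2 had 0.353 ± 0.315 CPM in TCam-2 and 3.63 ± 0.930 CPM in 2102 EP, so that this receptor was lower in the line where EFNA1 was higher. Of the other EPHA receptors tested, EPHA4 and EPHA8 were also called lower there with DMSO. EPHA10 was called higher, and EPHA1 and EPHA7 were not called. SEMA6B was lower by -2.91 ± 0.46, SEMA3B by -2.37 ± 0.44, EFNB3 by -2.25 ± 0.32, NTN1 by -1.62 ± 0.32 and PLXNB2 by -1.12 ± 0.16. With I-BRD9, among genes with at least 3 CPM in either line, the lower ones were led by UNC5D (-3.27 ± 0.43), EPHA2 (-3.02 ± 0.47), EFNB3 (-2.56 ± 0.31), SEMA3B (-2.52 ± 0.49), NTN1 (-2.07 ± 0.29) and EPHB2 (-1.97 ± 0.22). NRP2 was lower by -1.33 ± 0.26 and SEMA3A by -1.18 ± 0.17. Each of these had an adjusted p of 0.000175 or less.

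Of the UNC5 receptors, UNC5D averaged 0.151 ± 0.0532 CPM in TCam-2 and 5.47 ± 1.94 CPM in 2102 EP with DMSO, while UNC5B differed by 0.23 ± 0.09 on the log2 scale (adjusted p = 0.0336). This did not pass with TCam-2 DMSO replicate 3 (0.221) or 2102 EP DMSO replicate 1 or 3 left out (0.0509 and 0.135), under RLE or total-count scaling (0.0545 and 0.0685), or by DESeq2 (0.0661). EPHA8, EPHA10 and SEMA5A were called in each treatment, and SLIT1 with I-BRD9, at under 3 CPM in every group.

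**Figure D5:**
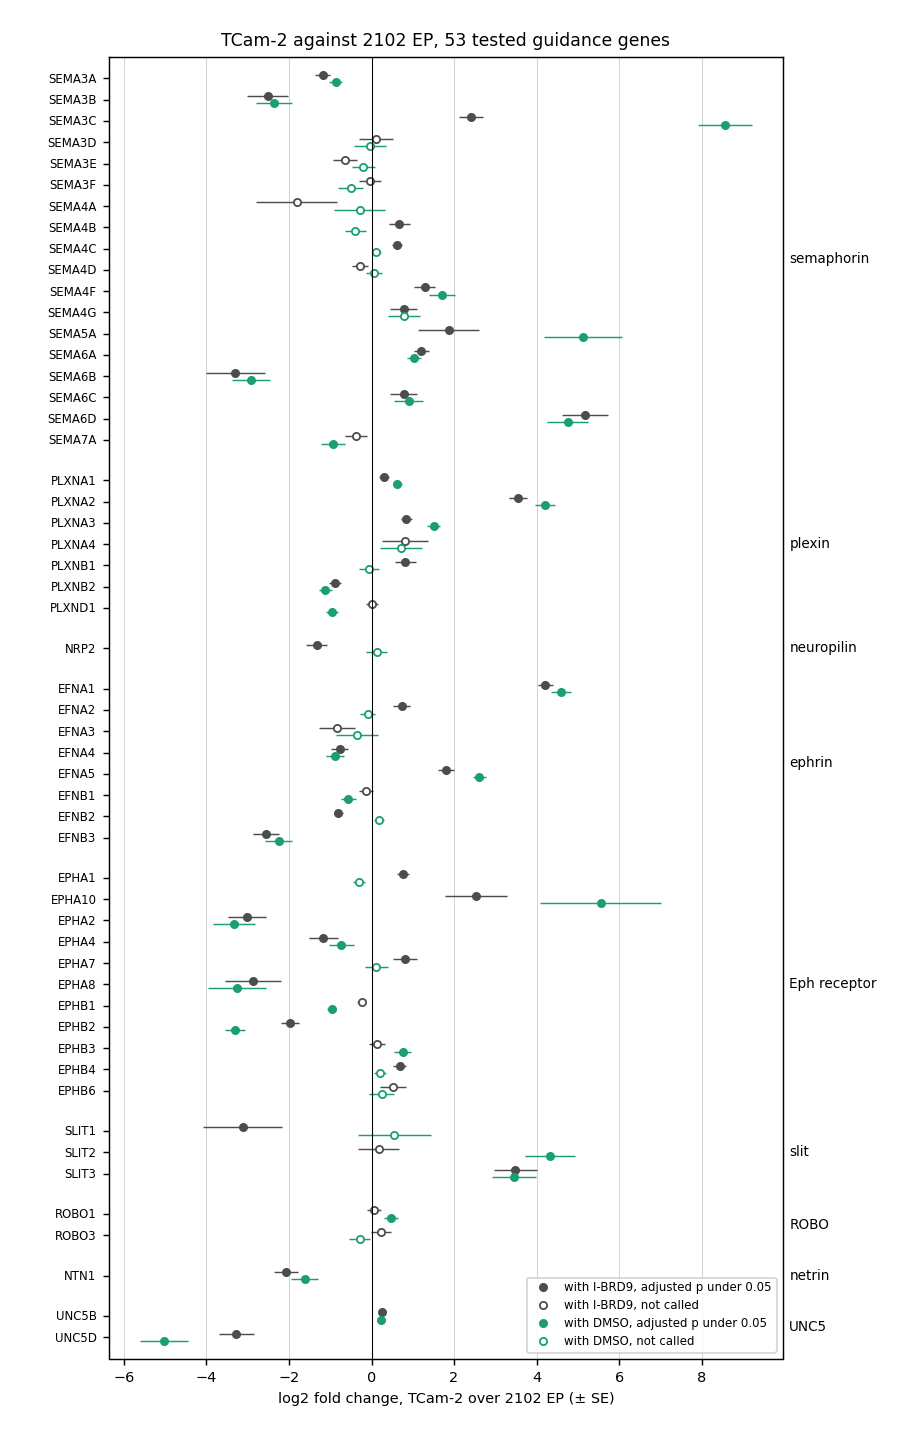
Log2 fold change of TCam-2 over 2102 EP (x axis, ± SE) for the 53 tested genes, by family, with I-BRD9 and with DMSO, with filled points for an adjusted p under 0.05. EFNA1, PLXNA2 and SLIT3 lie far to the right and UNC5D and EPHA2 far to the left under both treatments, while SLIT2 lies at 0.17 with I-BRD9 and at 4.32 with DMSO; fitted values of SEMA6D and SEMA6B with I-BRD9 and of SEMA3C, EPHA10 and SEMA5A with DMSO rest on 3 counts or fewer in 2102 EP or TCam-2.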

How the data were processed

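Total RNA was made into 3′ libraries with a Lexogen QuantSeq kit, per the labels' protocols. The authors deposited 1 table of estimated counts by gene, made with Salmon 1.9.0. Per the submitters' processing notes, GRCh38 was the build, and the other tools were STAR 2.7.11b, Trim Galore, DESeq2 and R 4.2.0. Annotation and strand handling: not given in the sources used here. Deposited counts were rounded, and edgeR 4.0.16 (run in R 4.3.3) gave the tests. Low genes were left out by filterByExpr, library sizes were scaled by TMM, and 1 quasi-likelihood model with 4 group means was fitted to the 12 libraries (8 residual degrees of freedom, common biological coefficient of variation 0.127). Within each comparison, adjustment was by Benjamini-Hochberg over 15614 genes. CPM use the scaled library sizes. A ratio against 1 to 3 counts has an exact interval, which covers counting error only. Alternatives were other scalings and filters, DESeq2 1.42.0, limma voom 3.58.1, blocks, and leaving out each library. Exon overlaps came from GENCODE release 29, in which all 61 genes were found, and promoters from RefSeq.

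The genes and lists were chosen with earlier results of these data known. Genes called in an I-BRD9 comparison or in the difference, with at least 3 CPM in a group, have values per library where a log2 fold change was at least 1, and a fold change otherwise. Between lines, up to 8 genes per direction with at least 3 CPM are given. Of the pathway list, up to 5 called genes per line with at least 10 CPM are given, with DCC, NEO1 and DRAXIN always. Other genes were named with their values in view. The model was tested on simulated counts.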

Additional observations from a re-analysis of the deposited data

Results flagged for a closer look

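For 12 guidance genes the effect of I-BRD9 differed between the lines by a test of the difference itself (edgeR, TCam-2 minus 2102 EP, log2). SEMA3C stood at -6.15, a fitted size that depends on the small count added to the 0 counts of 2102 EP with DMSO. SLIT2 stood at -4.15, with a fall in TCam-2 and a rise in 2102 EP. NRP2 stood at -1.46, with a fall in TCam-2 and overlapping libraries in 2102 EP. EFNB2 (-0.98) and PLXNA3 (-0.67) rose in both lines, by less in TCam-2. EFNA5 (-0.81) fell in both lines, by more in TCam-2. EPHA1 (1.06) and EPHB1 (0.72) fell in both lines, by less in TCam-2. PLXND1 (0.98), EFNA2 (0.82) and SEMA4C (0.50) fell in 2102 EP and were not called in TCam-2. EPHB2 (1.32) rose in TCam-2 and was not called in 2102 EP. With 3 libraries a group, no library was tested for lying apart from its group.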

How the results depend on the processing

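The filter on low counts set which of the 61 genes were tested. The number of guidance genes called stayed within 1.5 times its value under all scalings, filters, tools, blocks and left-out libraries that were run. In TCam-2 it lay between 10 and 13 for rises and between 11 and 14 for falls, in 2102 EP between 9 and 11 and between 12 and 15, and for the difference between 4 and 7 each way. Between the lines with I-BRD9 it lay between 16 and 23 for higher and between 15 and 17 for lower genes in TCam-2, and with DMSO between 14 and 19 and between 14 and 17. None of the followed calls changed direction. Those that held under every alternative were 16 of 25 in TCam-2, 21 of 23 in 2102 EP, 8 of 12 for the difference, 26 of 33 between the lines with I-BRD9 and 25 of 30 with DMSO; the cause of the losses was not tested. Under total-count scaling 59.0% of all calls in TCam-2 were rises, against 48.2% under TMM. With the replicate block, 13 genes rose and 13 fell in TCam-2, 10 rose and 14 fell in 2102 EP, and the difference was called for 4 and 5, without those of EFNA2, EFNA5 and SEMA4C (adjusted p of 0.0508, 0.0576 and 0.0739). Whether same-numbered libraries belong together is not given in the sources used here. Their residuals correlated at 0.16, 0.03 and 0.13 in TCam-2 and at -0.12, 0.10 and -0.08 in 2102 EP. These few values cannot decide it. Genes under 3 CPM rest on few counts, so that only large changes in them could be detected at this depth.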
